A study of Homo sapiens with 12 samples.

Results

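These regions held a peak of the histone variant H2A.Z in control Huh7 cells and none with VPS72 overexpression, while a peak of acetylated H2A.Z (H2A.Zac) was present at the same place in both conditions. Members were control H2A.Z peaks at least 500 bp wide on chromosomes 1 to 22 and X that overlapped an H2A.Zac peak of each condition by at least 1 bp and no overexpression H2A.Z peak of any width. The rule found 3042 regions among 182213 control H2A.Z peaks. The members were thus chosen by the peak calls of H2A.Z and H2A.Zac in both conditions and by control H2A.Z width, so values of those 4 libraries are a description with no test. They are compared with the 15190 regions that met the same rule except that an overexpression H2A.Z peak was present. The first set is called lost regions and the second kept regions.

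H2A.Z replaces the core histone H2A in nucleosomes beside active promoters and enhancers. The SRCAP and TIP60 complexes place it there, and VPS72, also called YL1, is the subunit that binds it. Acetylation of H2A.Z goes with active genes, and an antibody to H2A.Zac recognises H2A.Z molecules too, though only those that carry the acetyl group. H3K27ac marks active promoters and enhancers, and H3K4me1 marks enhancers and the flanks of promoters.

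The cells were Huh7, an established line from a human hepatocellular carcinoma, profiled by chromatin immunoprecipitation and sequencing. In the overexpression group a VPS72-FLAG lentivirus was applied for 24 h, and in the control group an empty-vector lentivirus, named lenti-HA in the sample titles. Both groups also carried a Cas9 knock-in of a FLAG tag ahead of the stop codon of endogenous VPS72, and colonies that survived blasticidin were expanded. FLAG therefore marked endogenous and lentiviral VPS72 in the overexpression group, and endogenous VPS72 in the control group. Each condition had 1 library for each of 5 antibodies (H2A.Z, H2A.Zac, H3K27ac, H3K4me1 and FLAG) and for the input, so differences between conditions lack replicates and carry no test. How many colonies went into the libraries is not stated, and markers of the cell type were not examined, as no gene positions of this genome build were used. All intervals are 95% intervals for counting error (Wilson for a share, Newcombe for a difference of 2 shares), and regions of 1 library are not replicates.

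Recovered depth was 20.4 M reads for H2A.Z with overexpression and 17.9 M in the control. It was 21.3 to 25.02 M for the other histone libraries, and 3.06 M for FLAG with overexpression and 4.38 M in the control. The lowest H2A.Z summit in the overexpression list held 5 reads, or 3.05 times the genome average, and the lowest in the control list held 4 reads, or 2.86 times. For H2A.Zac the lowest summits were 2.24 times the genome average with overexpression and 2.58 times in the control. An H2A.Z call was thus made at a higher relative height with overexpression than in the control, and an H2A.Zac call at a lower one. The part of these limits in the loss of a call was not tested.

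The strongest lost region by the authors' −log10 q of control H2A.Z lay at 1p34.3 (hg19, chromosome 1, 40042388 to 40043174). It had no H2A.Z peak with overexpression and 21 reads at its control H2A.Z summit, with a −log10 q of 12.1. Its H2A.Zac summit held 21 reads with overexpression and 46 in the control, and its H3K27ac summit 53 and 56 reads. No H3K4me1 or FLAG peak lay there in either condition. The acetylated form and H3K27ac were thus called in both conditions here, while the nearest overexpression H2A.Z peak lay 18695 bp away.

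The next region, at 19p13.3 (chromosome 19, 2900010 to 2900693), had 19 control H2A.Z reads. Its H2A.Zac summit was 19.3 times the genome average with overexpression and 24.7 times in the control, whereas H3K27ac was 4.67 times with overexpression and 13.9 times in the control. An overexpression H2A.Z peak lay 235 bp away, just outside the region. At 2q12.1 (chromosome 2, 103188057 to 103188933) the control had 19 H2A.Z reads, and H2A.Zac had 18 reads with overexpression and 33 in the control. This region had no H3K27ac peak in either condition, and peaks of H3K4me1 (15 reads) and FLAG (4 reads) were present with overexpression alone. At 12q13.11 (chromosome 12, 46766889 to 46767460) H3K27ac was 35.5 times the genome average with overexpression and 56.6 times in the control, the highest of the 10 strongest regions in both conditions.

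Of these 10 regions, all had a lower H2A.Zac summit with overexpression, at 0.396 to 0.892 times the control height. H3K27ac peaks were present at 8 with overexpression and at 7 in the control. H3K4me1 peaks were present at 6 with overexpression and at 2 in the control, and FLAG peaks at 2 with overexpression and at 1 in the control. An overexpression H2A.Z peak lay within 1000 bp at 3 of the 10.

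**Figure D1:**
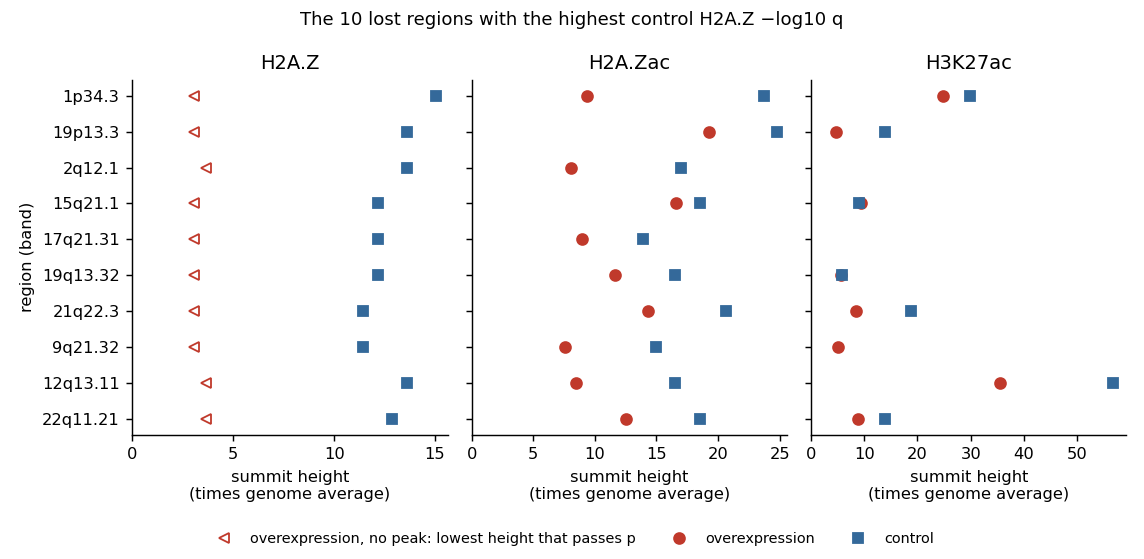
Summit height over the genome average of each library (x axes) at the 10 lost regions with the highest control H2A.Z −log10 q (rows, by cytogenetic band). Circles are overexpression and squares control; open triangles give the lowest overexpression H2A.Z summit that would pass a p of 0.05 at the control local background, 3.05 or 3.66 times the average. All 10 H2A.Zac circles lie left of their squares, and only the region at 15q21.1 has a higher H3K27ac circle among the 7 with both.

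The 5 lost regions with the highest H2A.Zac fold with overexpression had weaker control H2A.Z, with 8 to 12 reads. At 5q31.1 (chromosome 5, 133512684 to 133513265) the H2A.Zac summit held 51 reads with overexpression and 69 in the control, and H3K27ac held 66 and 80 reads, against 8 control H2A.Z reads. At the other 19p13.3 region (chromosome 19, 2427210 to 2427954) H2A.Zac held 54 reads with overexpression and 55 in the control, and H3K27ac 66 and 75. All 5 had H3K27ac in both conditions, and 4 had an overexpression H2A.Z peak within 1000 bp. Their distances to it were 64 to 337 bp, and the 19p13.3 region had none within 28387 bp.

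The widest lost region lay at 7q11.23 (chromosome 7, 76587658 to 76590227) and spanned 2570 bp, with 11 control H2A.Z reads at its summit and 22 H2A.Zac reads with overexpression, against 30 in the control. Another of the 5 widest, at 7p11.2 (chromosome 7, 55086040 to 55088055), held strong H3K27ac, 81 reads with overexpression and 90 in the control. The wide region at 22q11.1 (chromosome 22, 16155946 to 16157891) had a FLAG summit of 134 times the genome average with overexpression and 114 times in the control, far above the median of lost regions with a FLAG peak, 12.2 and 13.2 times. Its H2A.Zac summit with overexpression had a −log10 q of 0.

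Lost regions were weaker and narrower than kept ones in the control H2A.Z library. Their summits held a median of 8 reads (10th to 90th percentile, 6 to 12) and kept summits 11 (8 to 17). Median height was 5.73 times the genome average at lost regions and 7.87 times at kept ones, and median width 655 and 923 bp. A control H2A.Z q of 0.05 or less was found at 46.3% (44.5 to 48.1%) of lost regions and 79.3% (78.7 to 79.98%) of kept ones. Of all 31392 wide control H2A.Z peaks, 45.8% had no overexpression H2A.Z peak, a share the rule itself used and from which nothing is read. Among the 18232 with H2A.Zac in both conditions this was 16.7% (16.2 to 17.2%), which are the lost regions, and among the 9784 with H2A.Zac in neither it was 91.8% (91.3 to 92.3%). With H2A.Zac in the control alone it was 68.8% (67.1 to 70.5%).

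The lost share was lower in each stronger class of control H2A.Z. In 5 classes of control H2A.Z −log10 p of about equal size, the lost share was 34.2, 24.3, 14.7, 7.79 and 2.36%, weakest class first. In 3 classes of width it was 30.6, 16.0 and 3.49%, narrowest first. Just inside the width limit, at 500 to 519 bp, 271 of 716 regions with H2A.Zac in both conditions had lost the call, with a median fold of 2.92. Just outside it, at 480 to 499 bp, 282 of 699 had, with a median fold of 3.11.

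**Figure D2:**
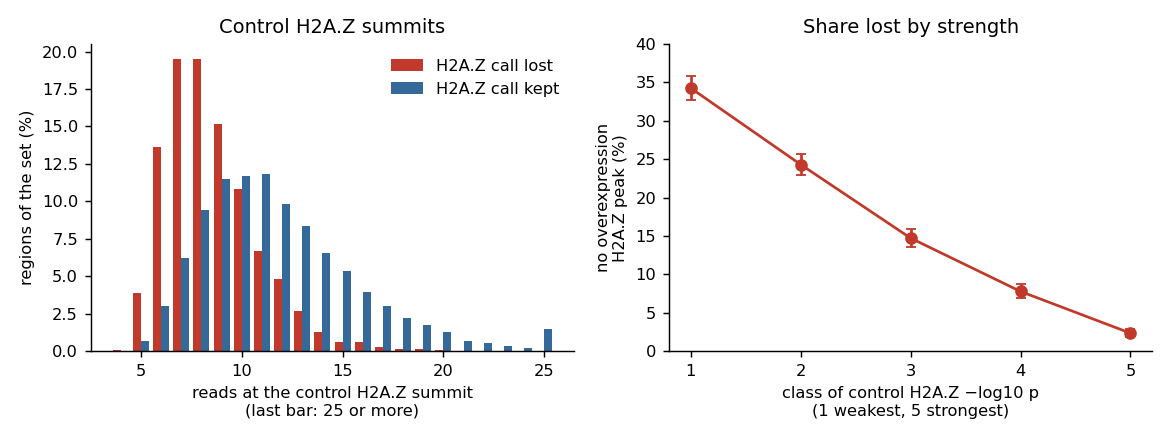
Left, distribution of reads at the control H2A.Z summit (x axis) in lost and kept regions, as a percentage of each set (y axis). Right, percentage of regions with H2A.Zac in both conditions that had no overexpression H2A.Z peak (y axis) in 5 classes of control H2A.Z −log10 p (x axis), with Wilson 95% intervals; it declines to 2.36% in the strongest class, against 34.2% in the weakest.

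A missing call at most bounds the height. At the local background of each lost region in the control, the lowest overexpression summit that passes a p of 0.05 was 3.05 to 8.53 times the genome average. Set against the control summit, a height below that limit means a ratio, overexpression over control, of less than 0.608 at the median lost region. The limit was at or below 0.667 at 1993 regions (65.5%) and at or below 0.5 at 787 (25.9%). At 89 regions (2.93%) the limit was 1 or more, so there a summit as high as in the control could still lack a call. The peak caller also needs a minimum length, which the limit leaves out, and the local background with overexpression may differ from the control one. A summit above the limit could therefore also lack a call. The same limit at kept regions had a median of 0.464. There both heights were known, and the median ratio was 0.922. The rule chose kept regions for having an overexpression call, so nothing is read from this ratio against the limit at lost regions.

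The same rule run in the other direction or on other marks found fewer lost calls in most cases. Of overexpression H2A.Z peaks at least 500 bp wide with H2A.Zac in both conditions, 269 of 11628 (2.31%) had no control H2A.Z peak. Of wide control H2A.Zac peaks with H2A.Z in both conditions, 872 of 19304 (4.52%) had no overexpression H2A.Zac peak. For wide control peaks with H2A.Zac in both conditions, 4.74% of 16928 H3K27ac peaks and 3.41% of 5685 H3K4me1 peaks had no overexpression peak of their mark. Of wide overexpression H3K4me1 peaks with H2A.Zac in both conditions, 26.4% of 13674 had no control peak, above the 16.7% of control H2A.Z. Over all wide peaks of each list, with no second mark asked for, the share was 7.25% for overexpression H2A.Z and 22.1% for control H2A.Zac. It was 13.6% for control H3K27ac, 11.1% for control H3K4me1 and 38.7% for overexpression H3K4me1, against 45.8% for control H2A.Z. The H2A.Z list held 57951 peaks with overexpression and 182213 in the control, on the chromosomes used. The H2A.Zac lists held 74204 with overexpression and 81287 in the control. For H3K27ac these were 76425 and 64460, and for H3K4me1 155160 and 124449. Lists of different length and limit enter the shares above, so the H2A.Z shares of the 2 directions are not alike. The part of length and limit was not tested.

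H2A.Zac stayed as a call at the lost regions, but its summits were lower with overexpression. The overexpression list gave a q of 0.05 or less at 2203 of the 3042 regions (72.4%), and the control list at 2864 (94.1%). Median H2A.Zac height was 7.16 times the genome average with overexpression (10th to 90th percentile, 4.03 to 12.5) and 10.8 times in the control (5.67 to 20.6). At kept regions it was 11.6 times with overexpression and 18.05 times in the control. The median ratio, overexpression over control, was 0.651 at lost regions and 0.644 at kept ones, against 0.670 at all 32834 control H2A.Zac peaks with an overexpression peak. The ratio was at or below 1/1.5, that is at least 1.5 times lower, at 1611 lost regions (53.0%), against 48.9% of all such control H2A.Zac peaks. It was at least 1.5 times higher at 14 (0.460%), against 0.624%. The rule used these libraries, so nothing is read from the shares. By strength class the median H2A.Zac ratio was 0.637 to 0.661 at lost regions and 0.641 to 0.651 at kept ones.

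The H2A.Zac peaks of both conditions mostly covered the same places. At 2993 of 3042 lost regions the highest overexpression and control H2A.Zac peaks overlapped each other, and their summits lay a median of 106 bp apart. The control H2A.Z summit lay a median of 192 bp from the control H2A.Zac summit at lost regions and 178 bp at kept ones. In the control the H2A.Zac height was a median of 1.86 times the H2A.Z height at lost regions and 2.25 times at kept ones, each over the average of its own library.

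**Figure D3:**
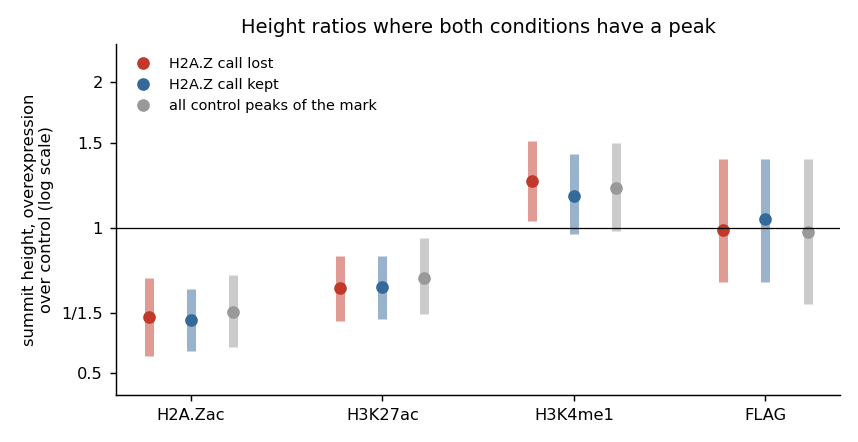
Summit height with overexpression over that in the control (y axis, log scale), each over its library's genome average, for 4 antibodies (x axis) at regions with a peak in both conditions. Points are medians and bars run over the middle 50% of regions, for lost regions, kept regions and all control peaks of the mark; the H2A.Zac medians are 0.651, 0.644 and 0.670 and the H3K4me1 medians 1.25, 1.16 and 1.21.

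H3K27ac, which the rule did not use, was less frequent at lost than at kept regions. With overexpression 56.5% (54.7 to 58.2%) of lost regions carried an H3K27ac peak and 65.7% (64.9 to 66.4%) of kept ones, a difference of -9.18 percentage points (-11.1 to -7.27). In the control these were 65.3 and 70.9%, a difference of -5.58 points (-7.44 to -3.76). Both sets lay above the share over all 31392 wide control H2A.Z peaks, 39.8% with overexpression and 43.8% in the control. The 2 sets were chosen for H2A.Zac in both conditions, whereas 9784 of those peaks had it in neither, so the shares are not alike. Both conditions had the peak at 1625 lost regions, overexpression alone at 93, the control alone at 362 and neither at 962. Lost regions with a control H3K27ac peak also had an overexpression peak in 81.8% (80.02 to 83.4%) of cases. Kept regions with one did in 87.9% (87.2 to 88.5%). Counted peak by peak, 55.8% of control H3K27ac peaks of any width had no overexpression peak, and 13.6% of those at least 500 bp wide. Control H3K27ac peaks at lost regions had a median width of 1151 bp, against 391 bp in the whole list.

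Where both conditions had H3K27ac, the intervals of its height ratio overlapped between the sets (interval of the median over regions, from order statistics). The median ratio was 0.748 (0.739 to 0.758) at 1625 lost regions and 0.754 (0.748 to 0.758) at 9463 kept ones, against 0.786 at all 28465 control peaks with an overexpression peak. At lost regions 498 (30.6%) were at least 1.5 times lower, against 25.9% of all, and 21 (1.29%) at least 1.5 times higher, against 3.59% of all.

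Over all regions and the lists as deposited, H3K4me1 was more frequent at lost than at kept regions. The order was the other way among the regions with the strongest control H2A.Z, given with the strength classes. It was also the other way with overexpression where every list was limited to a q of 0.05 or less before the regions were chosen. The difference was then -4.12 points (-5.85 to -2.37), between other sets of 4421 lost and 7986 kept regions. With overexpression and no such limit it was found at 52.8% (50.98 to 54.5%) of lost regions and 49.1% (48.3 to 49.9%) of kept ones, a difference of 3.69 points (1.74 to 5.63). That interval included 0 where the control H2A.Z peak had a q of 0.05 or less, 1.28 points (-1.48 to 4.03), and at widths of 1000 bp or more, 2.21 points (-3.68 to 7.88). In the control the difference was 7.26 points (5.41 to 9.14), with 37.4% at lost and 30.1% at kept regions. Over all 31392 wide control H2A.Z peaks H3K4me1 was found at 38.6% with overexpression and 27.2% in the control. With a q of 0.05 or less it was found at 42.2% of lost and 35.5% of kept regions with overexpression, and at 14.1 and 9.08% in the control. A new H3K4me1 call, present with overexpression and not in the control, was made at 610 lost regions. This was 32.0% (30.0 to 34.2%) of the lost regions without a control peak and 33.7% (32.8 to 34.6%) of such kept regions, with overlapping intervals. Of the 1137 lost regions with a control H3K4me1 peak 142 had no overexpression peak. Counted peak by peak, 41.6% of control H3K4me1 peaks of any width had none, and 11.1% of those at least 500 bp wide. Control H3K4me1 peaks at lost regions had a median width of 545 bp, against 338 bp in the whole list.

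Where both conditions had H3K4me1, the median ratio was 1.25 (1.22 to 1.28) at 995 lost regions and 1.16 (1.16 to 1.19) at 3872 kept ones, against 1.21 at all 72678 control peaks with an overexpression peak. At least 1.5 times higher were 250 lost regions (25.1%), against 24.2% of all, and at least 1.5 times lower 20 (2.01%), against 2.43% of all. Both shares lay near the background of the mark, while the median was above that of kept regions beyond its interval.

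In combination, H3K27ac without H3K4me1 was found at 30.7% (29.1 to 32.4%) of lost and 38.9% (38.1 to 39.7%) of kept regions with overexpression, and at 42.4% (40.7 to 44.2%) and 53.0% (52.2 to 53.8%) in the control. H3K27ac with H3K4me1 was found at 25.8% of lost and 26.8% of kept regions with overexpression, and at 22.9 and 17.9% in the control. H3K4me1 without H3K27ac was found at 821 of 3042 lost regions and 22.3% of kept ones with overexpression, and at 14.5 and 12.2% in the control. Neither mark was found at 16.5% of lost and 12.04% of kept regions with overexpression, and at 20.2 and 16.9% in the control. The lost set therefore held fewer regions with H3K27ac alone than the kept set, in both conditions. It held more with H3K4me1 alone and also more with neither mark, again in both conditions.

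FLAG, which marks tagged VPS72 and any nonspecific FLAG signal, was less frequent at lost than at kept regions. With overexpression 20.3% (18.9 to 21.7%) of lost regions overlapped a FLAG peak and 37.4% (36.7 to 38.2%) of kept ones, a difference of -17.1 points (-18.7 to -15.5). In the control these were 19.9% (18.5 to 21.4%) and 41.7% (40.9 to 42.5%), a difference of -21.8 points (-23.4 to -20.1). Over all 31392 wide control H2A.Z peaks the share was 30.3% with overexpression and 30.8% in the control, between the 2 sets. With a q of 0.05 or less FLAG was found at 8.32% of lost and 18.6% of kept regions with overexpression, and at 11.8 and 27.9% in the control. The FLAG lists hold peaks of as few as 1 read with overexpression and 2 in the control. Neither condition had FLAG at 2189 lost regions (71.96%), against 50.1% of kept ones.

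**Figure D4:**
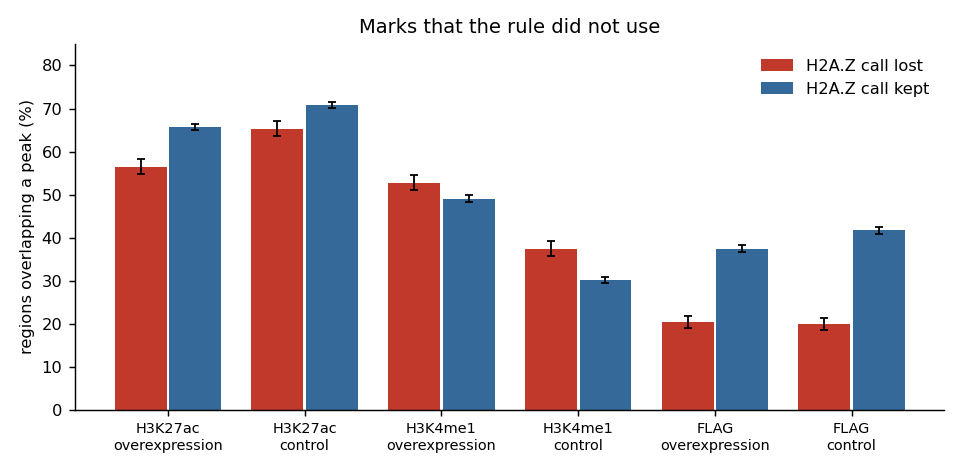
Percentage of lost and kept regions (y axis) that overlapped a peak of H3K27ac, H3K4me1 or FLAG in each condition (x axis), with Wilson 95% intervals. FLAG stands at 20.3 and 19.9% of lost regions with overexpression and in the control, and at 37.4 and 41.7% of kept ones.

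The FLAG height ratio had overlapping intervals in the 2 sets. At 370 lost regions with FLAG in both conditions the median ratio, overexpression over control, was 0.990 (0.924 to 1.04), against 1.04 (1.01 to 1.04) at 4434 kept ones and 0.978 at all 81524 control FLAG peaks with an overexpression peak. At least 1.5 times higher were 48 (13.0%), against 14.9% of all, and at least 1.5 times lower 63 (17.0%), against 18.0% of all. Of 606 lost regions with a control FLAG peak 236 had no overexpression peak. A control FLAG peak came with an overexpression one at 61.1% of such lost and 70.0% of such kept regions. Counted peak by peak, 55.7% of control FLAG peaks of any width had no overexpression peak. That list had a median width of 363 bp, against 525.5 bp for its peaks at lost regions, so the shares are not alike.

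FLAG was less frequent at lost regions within each class of control H2A.Z strength too. By strength class, weakest first, control FLAG was found at 16.1, 20.8, 25.1, 26.1 and 14.0% of lost regions and at 27.4, 30.7, 37.7, 46.6 and 58.7% of kept ones. The intervals did not overlap in any of the 5 classes, and in the strongest class they were 8.17 to 22.8% of 86 lost regions and 57.04 to 60.3% of 3561 kept ones. With 3 classes of width in each class of strength, the control FLAG share was lower at lost regions in 14 of the 15, with the difference beyond its interval in 11. For overexpression FLAG these counts were 15 and 7.

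The size of the differences depended on strength and width. With kept regions weighted to the 15 classes of the lost ones, a weighting chosen after seeing the data, the FLAG difference was -6.60 points with overexpression and -9.42 in the control, against -17.1 and -21.8 unweighted. The H3K27ac difference was -6.76 points with overexpression and -2.33 in the control, against -9.18 and -5.58. The H3K4me1 difference was 9.37 points with overexpression and 11.5 in the control, against 3.69 and 7.26. All 6 kept their direction, and the order of their sizes was not the same with and without the weighting.

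H3K4me1 was higher at lost regions in 12 of the 15 classes with overexpression, 5 beyond their interval, and in 13 in the control, 9 beyond it. In the strongest class the order was the other way, 26.7% (18.5 to 36.9%) of lost and 38.4% (36.8 to 39.997%) of kept regions in the control, with overlapping intervals. With overexpression it was 38.4% (28.8 to 48.9%) of lost and 58.6% (57.01 to 60.2%) of kept regions in that class. H3K27ac was lower at lost regions in 11 classes with overexpression, 6 beyond their interval, and in 10 in the control, 2 beyond it.

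**Figure D5:**
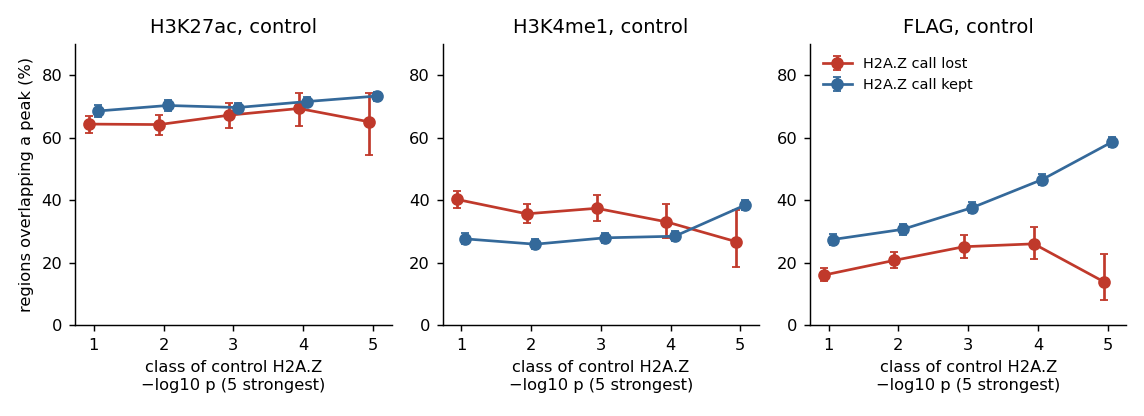
Percentage of lost and kept regions (y axes) that overlapped a control peak of H3K27ac, H3K4me1 or FLAG, in 5 classes of control H2A.Z −log10 p (x axes, 5 strongest), with Wilson 95% intervals. The FLAG lines part towards the strongest class, 14.0% of lost and 58.7% of kept regions, while the H3K4me1 lines cross there.

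Regions of one mark combination lost the call less often where the control had FLAG, as a description, since the rule set the loss. With H3K27ac and H3K4me1 in the control, 6.55% (5.26 to 8.13%) of 1145 regions with FLAG were lost, against 27.4% (25.6 to 29.3%) of 2267 without. With H3K4me1 and no H3K27ac these were 8.08% of 1126 and 29.8% of 1173. With H3K27ac and no H3K4me1 they were 8.86% of 3545 and 16.8% of 5800, and with neither mark 11.2% of 1123 and 23.8% of 2053.

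Some lost calls lay beside a remaining H2A.Z call and others far from any. An overexpression H2A.Z peak lay within 500 bp of 645 lost regions (21.2%) and within 1000 bp of 848 (27.9%), whereas 1290 (42.4%) had none within 10000 bp. The same counts over all wide control H2A.Z peaks are not given, so whether this spacing is particular to lost regions is not known. At 398 lost regions (13.1%) the overexpression H2A.Zac peak ran on to an overexpression H2A.Z peak outside the region. This choice favours wide H2A.Zac peaks, and the rule used H2A.Zac, so nothing is read from its width or height here. These 398 had wider H2A.Zac peaks with overexpression, a median of 1293 bp against 581 bp at the other 2644, and higher H2A.Zac summits, 10.3 against 6.72 times the genome average. Their control H2A.Z height had the same median, 5.73 times. With overexpression they carried H3K27ac in 73.6% (69.1 to 77.7%) of cases, against 53.9% (52.0 to 55.8%) of the others, and H3K4me1 in 34.2% (29.7 to 38.96%), against 55.6% (53.7 to 57.4%). FLAG was found at 18.6% (15.1 to 22.7%) and 20.5% (19.04 to 22.1%), with overlapping intervals. In the control, 826 lost regions shared their H2A.Zac peak with another H2A.Z peak, which kept an overexpression call at 442 of them (53.5%).

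Lost regions were spread over the genome. They fell in 695 of the 785 cytogenetic bands that held a region with H2A.Zac in both conditions, and 2744 of the 3042 had no other lost region within 10000 bp. The like count for kept regions is not given, so nothing is read from this spacing. The largest group was 4 regions at 17q25.3 (chromosome 17, 81005997 to 81010498), which were all 4 regions of that stretch with H2A.Zac in both conditions. The lost share was 27.5% (22.2 to 33.5%) of 240 regions on chromosome X, 23.9% (17.9 to 31.1%) on 21 and 22.9% (19.6 to 26.4%) on 16. It was lowest on 19 with 13.1% (11.2 to 15.2%). The median local background of the control H2A.Z peaks was 1.16, 1.00 and 1.00 times the genome average on X, 21 and 16, and 1.36 times on 19. In 10 bins of 1 Mb on chromosomes 11 and 14 with a raised background, 2.01 to 4.97 times the average, 19 of 231 regions (8.23%; 5.33 to 12.5%) were lost. Over all chromosomes the 75th percentile of the local background was 1.36 times at lost regions and 1.62 times at kept ones. The part of local background in the loss of a call was not tested. No lost region overlapped an input peak of either condition, 0 of 3042, which allows a share of up to 0.126% (Wilson). The input lists held only 490 peaks with overexpression and 467 in the control on these chromosomes. With lists so short, nothing is read from this about background.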

How the data were processed

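Peak lists of 12 libraries were used. Peaks were called with MACS2 after FastQC, Trimmomatic and BWA, per the submitters' processing notes; the sources used here give neither versions nor thresholds nor which library served as control. The deposited fold ratio is the summit over the local background of the peak caller, the deposited −log10 p and q values belong to the summit, and the deposited score is the whole part of 10 times the −log10 p. Groups follow the sample titles, which name VPS72, whereas genotype labels of the overexpression libraries other than the input name other VPS genes. The notes name hg19 and hg38. All peaks lay within hg19 lengths on 23 of 23 chromosomes and ran past the hg38 end on 14, so coordinates are hg19, 1-based. Genes, promoters and sequences were not analysed here.

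The members were chosen with earlier results of these data known. Each summit's whole reads were worked out from its deposited fold and p (tolerance 0.002; at least 99.97% of peaks), and divided by the genome average of the library. Recovery was right for 99.5% of 11591 peaks tested on simulated data. The simulated genome averages were near those of the histone libraries. FLAG averages were 0.329 reads with overexpression and 0.456 in the control, so the test did not cover FLAG. Where more than 1 solution fitted, the lowest background was taken. This held for 8.33% of distinct fold and p pairs of overexpression FLAG, and for 7.23% of control H2A.Zac. Depth assumes a genome of 2.7 Gb. Where several overlapping peaks occurred, the highest was taken. Overlaps and intervals were computed with scipy 1.17.1, pandas 2.3.3 and numpy 2.4.6 in Python 3.11.15, figures with matplotlib 3.10.9, and bands and chromosome lengths came from circlize 0.4.16 and GenomeInfoDb 1.38.1 in R 4.3.3. Named regions are the 10 strongest members by control H2A.Z q, the 5 widest and the 5 with the highest overexpression H2A.Zac fold. In addition, the group at 17q25.3 was named after its values were seen. Alternatives changed the width, the q limit, the overlap, the distance, the segments used and the weighting of kept regions.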

Additional observations from a re-analysis of the deposited data

How the results depend on the processing

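The lower FLAG and H3K27ac shares at lost regions kept their direction under all 9 alternatives. The higher H3K4me1 share kept its direction under 8, but in 2 of these the interval of the difference included 0: a control H2A.Z q of 0.05 or less and a width of 1000 bp or more (2.21 points). The alternatives chosen after seeing the data were control summits at least 2 times the lowest overexpression H2A.Z height, and kept regions weighted to the strength and width of the lost ones. The weighting gave differences of -6.60 points for FLAG, -6.76 for H3K27ac and 9.37 for H3K4me1. A q of 0.05 or less in every list gave 4421 lost and 7986 kept regions, against 3042 and 15190. Overexpression H2A.Z peaks above that q no longer counted, so regions with such a peak could enter the lost set. With this limit the difference between lost and kept regions was -4.12 points for H3K4me1, reversed, -3.40 for H3K27ac and -9.69 for FLAG. The shares at lost regions were then 32.6% for H3K4me1 and 13.1% for FLAG, and the H3K27ac height ratio 0.758. With no width limit there were 9410 lost regions, with H3K4me1 at 45.9%, 1.40 points above kept ones, and FLAG at 16.3%. At 1000 bp or more there were 288, with H3K27ac at 62.5%, H3K4me1 at 58.7% and FLAG at 29.9%. A control H2A.Z q of 0.05 or less left 1408, with an H3K4me1 difference of 1.28 points and FLAG at 23.8%. The height limit left 1319, with FLAG at 23.2%. An overlap of 0.5 of the shorter peak gave H3K27ac at 54.1%, H3K4me1 at 36.5% and FLAG at 16.0%. With no overexpression H2A.Z peak within 1000 bp, H3K27ac was at 51.8%, -13.9 points from kept regions, and H3K4me1 at 58.4%, 9.31 points above them. The cause of these changes was not tested. Leaving out the raised background on chromosomes 11 and 14 moved no value beyond its counting interval. No paired analysis was possible because each group had 1 library. A missing H2A.Z peak at most bounds the height, with the caller's minimum length left out, and does not show that H2A.Z is absent. The part of depth, 20.4 M reads with overexpression and 17.9 M in the control, was not tested.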
